A study of Mus musculus with 10 samples.

Results

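Expression of 9 genes for ATP-binding cassette (ABC) transporters was compared between Ptbp1-deficient and wild-type (WT) mouse dendritic cells. The genes are Abca2, Abca3, Abca5, Abca7, Abca9, Abcg1, Abcb1a, Abcb1b and Abcc3. They were chosen by symbol, and all 9 had a row among the 19178 gene rows of the deposited count table. Poly(A) RNA of the dendritic cells, which take up antigen and present it to T cells, was read as 150 bp pairs in 5 libraries of each genotype, from mice of 8 to 10 weeks. The title of the series places the work in the control of T cells and of immunity against tumours. The groups differ by 1 label, genotype. In the labels, neither the altered part of Ptbp1, nor the cells in which it was lost, nor the tissue or sex is stated. They do not tie each library to a mouse of its own, so the p-values measure the spread between these libraries.

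ABC transporters are membrane pumps that use ATP to move a substrate across a membrane or from one leaflet of it to the other. Most proteins of the A subfamily handle lipids, those of the G subfamily include sterol exporters, and the B and C subfamilies hold exporters of drugs, peptides, phospholipids and conjugated anions. In antigen-presenting cells such pumps shed sterol, supply lipid to endosomes and lysosomes and carry peptides for MHC class I.

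The libraries held 50516000 to 92698000 counts in genes, to 5 digits. Levels are CPM, counts scaled to library size after TMM normalization, given as mean ± SD with n = 5 libraries a genotype, and a gene is called changed at an adjusted p under 0.05 in edgeR's quasi-likelihood test. Ptbp1 stood at 74.4 ± 1.08 CPM in deficient and 294 ± 21.1 CPM in WT libraries, 25.3% of WT, and every deficient library was below every WT library. Its log2 fold change was -1.98 in the counts and -1.18 in the authors' values on the log2(FPKM + 1) scale (limma). All 12 dendritic cell markers looked for were measured, with Flt3 at 558 ± 22.0 and 604 ± 56.7 CPM in deficient and WT libraries. Of the 12, 5 rose and 2 fell: the markers of cross-presenting dendritic cells Xcr1 (3.21-fold) and Clec9a (1.59-fold) rose, as did Itgax, H2-Aa and Zbtb46, while Sirpa (66.6% of WT) and Irf4 (77.5%), markers of the other conventional subset, fell. The part of this shift in the values below was not tested. Markers of other cells were present. The 17 macrophage markers, all with counts in every library, summed to 642 to 1349 CPM in the deficient and 1710 to 4525 CPM in the WT libraries, and 11 of them were lower and none higher in the deficient group. WT replicates 1 and 5 held the most, 3019 and 4525 CPM, and deficient replicates 1 and 2 the least, 658 and 642 CPM. WT replicate 5 was also far above the other WT libraries in the summed markers of B cells, monocytes and neutrophils, T cells, plasmacytoid dendritic cells and stroma (2141, 862, 109, 699 and 116 CPM against at most 935, 219, 40.7, 431 and 24.3 CPM). Plasmacytoid dendritic cell markers separated the genotypes, at 283 to 334 CPM in deficient and 337 to 699 CPM in WT libraries, with 6 of 10 lower and 1 higher. For stroma 3 of 12 markers were measured, at 2.47 to 7.07 CPM in deficient libraries, and the other 9 stromal markers looked for were not analysed here.

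Of the 9 transporter genes 7 fell in Ptbp1-deficient cells and none rose. Over all 18248 genes tested, 45.0% changed, 21.9% upward and 23.1% downward. The median log2 fold change of the 9 genes was -0.31, beside -0.03 for all genes. For Abca9, Abca5, Abca7 and Abcc3 every deficient library lay below every WT library, as it did for 16.2% of all genes. Changes of over 2-fold were called in 9.39% of all genes, 6.04% downward, and falls of that size were seen in Abca9, Abcc3 and Abca5. Each of the 9 genes had at least 225 counts in every library, so none entered the test through 1 genotype alone. The genes were picked with earlier results of these libraries known, so these shares describe them and are no test of the group. Without WT replicates 1 and 5, 7 genes still fell and 1, Abcg1, rose, while without deficient replicates 1 and 2, 6 fell.

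**Figure D1:**
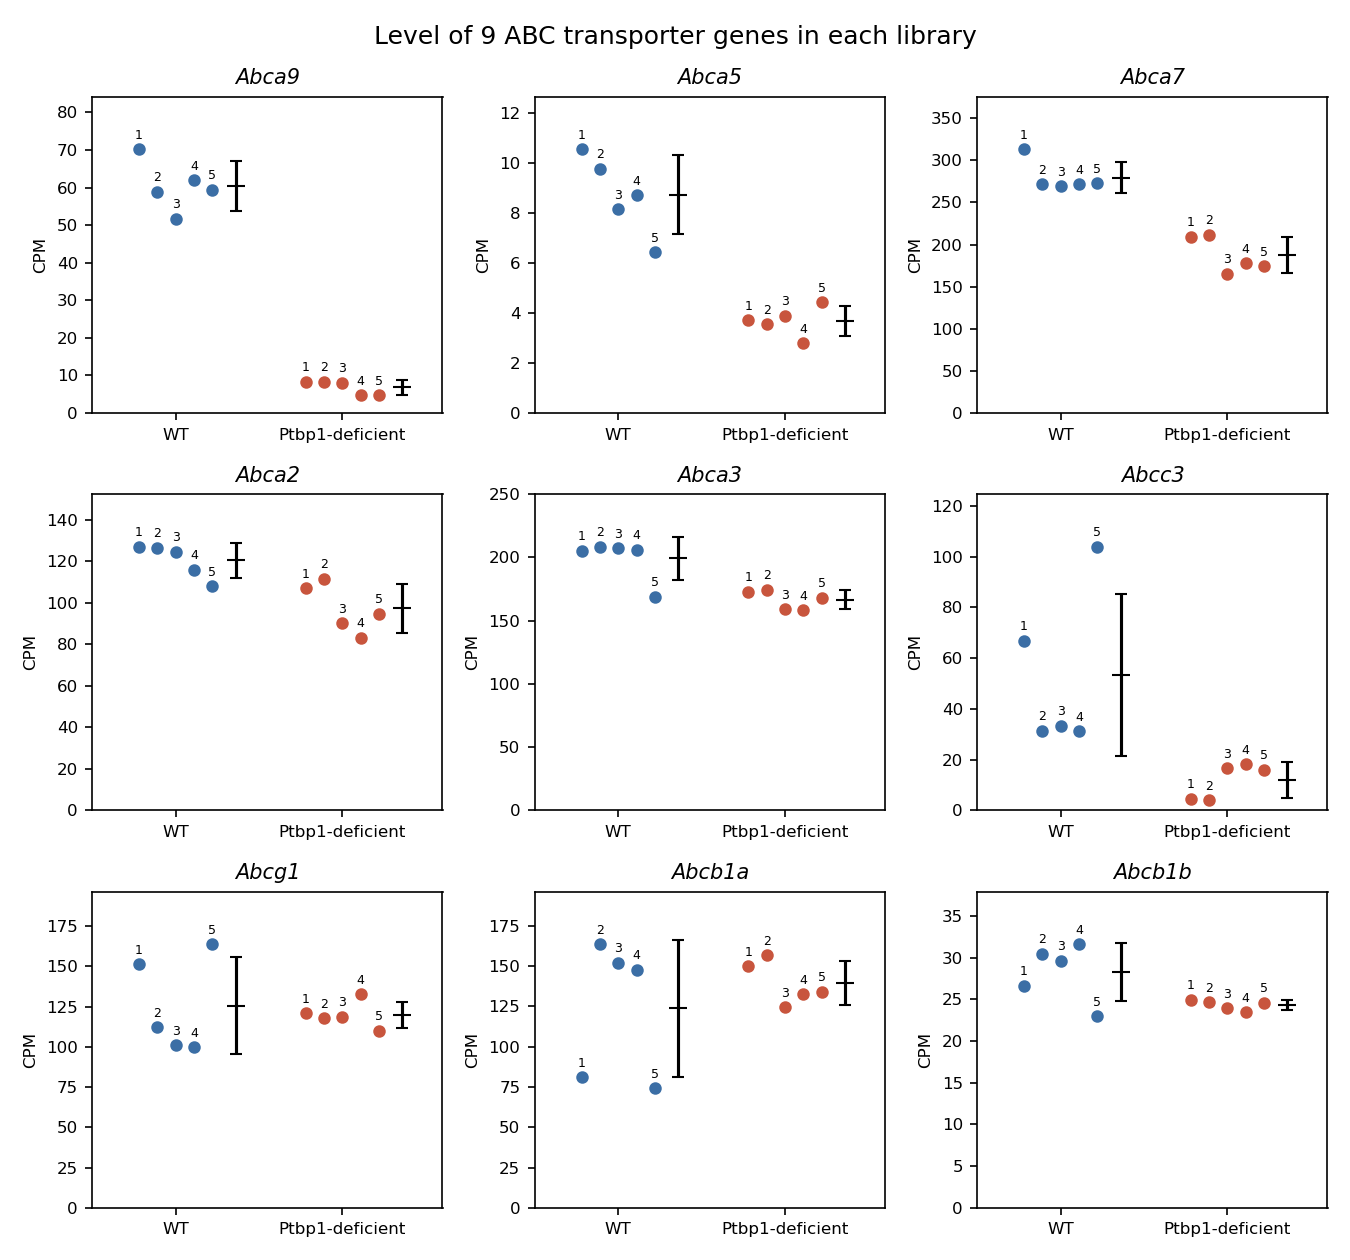
CPM (vertical axis, from 0) of the 9 transporter genes in each WT (blue) and Ptbp1-deficient (red) library, numbered by replicate, with mean and SD in black (n = 5 a genotype). Abca9, Abca5, Abca7 and Abcc3 do not overlap between genotypes, while Abcg1 and Abcb1a are set apart in WT replicates 1 and 5.

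Abca9 had the steepest fall of the 9. Its protein belongs to a branch of the A subfamily whose substrates are little known, and the human gene responds to cholesterol loading in macrophages. The gene (ENSMUSG00000041797) lies on chromosome 11, 110100749 to 110168196 on the minus strand of GRCm38. Its level was 70.2, 58.8, 51.6, 62.0 and 59.4 CPM in WT replicates 1 to 5, and 8.32, 8.34, 7.99, 4.76 and 4.69 CPM in deficient replicates 1 to 5. The lowest WT library was thus far above the highest deficient one. The means were 60.4 ± 6.68 and 6.82 ± 1.92 CPM, 11.3% of WT (log2 fold change -3.15, SE 0.18, edgeR adjusted p = 3.1e-07). Of the WT libraries with the most macrophage markers, replicate 5 lay within the range of the others and replicate 1 was the highest, and the log2 fold change without both was -3.09. In bulk RNA, fewer cells that express a gene and less of its RNA in each cell cannot be told apart.

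Abca5 lies in the same gene cluster and encodes a pump of late endosomes and lysosomes. It was the least abundant of the 9 per length of transcript. The gene (ENSMUSG00000018800) spans chromosome 11, 110269369 to 110337716, also on the minus strand. In WT replicates 1 to 5 its level was 10.6, 9.77, 8.14, 8.72 and 6.44 CPM. The deficient libraries had 3.70, 3.55, 3.88, 2.80 and 4.43 CPM in the same order, all below the lowest WT value. It fell to 42.1% of WT, from 8.72 ± 1.58 to 3.67 ± 0.593 CPM (log2 fold change -1.25, SE 0.15, edgeR adjusted p = 5.1e-05).

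The remaining measured genes of that cluster fell as well. From the start of Abca8b to the end of Abca5, 406 kb, the annotation holds 6 genes, of which 4 were tested and all 4 fell: Abca9, Abca5, Abca6 and Abca8b. Abca6, whose end nearest Abca9 is 8.62 kb away, fell from 2.38 ± 0.277 to 0.275 ± 0.0866 CPM (log2 fold change -3.11, SE 0.21, edgeR adjusted p = 8.0e-07). Abca8b was scarce, with as few as 5 counts in a library, and fell from 0.747 ± 0.291 to 0.142 ± 0.118 CPM (log2 fold change -2.34, SE 0.45, edgeR adjusted p = 0.0014). Abca8a was not analysed here. Of the 50-base windows of the longest coding transcript, 0.205% for Abca9 and none for Abca5 occurred in a transcript of another gene. Windows of Abca6 and Abca8b were not examined, and the part of shared sequence in their counts was not tested.

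RefSeq promoters (GRCm38.p6) were matched for 7 of the 9 genes, and those of Abca9, Abca5 and Abca7 are printed because these genes fell with no overlap between genotypes. Each run holds the 250 bases before the start site, 5′ to 3′ on the gene's strand, with every CG pair in capitals. They are Abca9 at chr11:110168154-110168403 (minus), Abca5 at chr11:110337717-110337966 (minus) and Abca7 at chr10:79996244-79996493 (plus).
Abca9: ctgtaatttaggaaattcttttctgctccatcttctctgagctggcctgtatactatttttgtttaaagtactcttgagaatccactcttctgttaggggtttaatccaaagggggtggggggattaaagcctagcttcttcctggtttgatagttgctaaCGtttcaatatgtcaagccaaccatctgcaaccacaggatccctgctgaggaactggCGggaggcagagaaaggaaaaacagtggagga
Abca5: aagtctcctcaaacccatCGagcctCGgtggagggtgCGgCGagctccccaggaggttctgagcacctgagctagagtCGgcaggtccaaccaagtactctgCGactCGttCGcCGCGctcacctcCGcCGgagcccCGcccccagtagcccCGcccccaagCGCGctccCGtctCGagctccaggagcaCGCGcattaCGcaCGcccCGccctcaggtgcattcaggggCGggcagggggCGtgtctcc
Abca7: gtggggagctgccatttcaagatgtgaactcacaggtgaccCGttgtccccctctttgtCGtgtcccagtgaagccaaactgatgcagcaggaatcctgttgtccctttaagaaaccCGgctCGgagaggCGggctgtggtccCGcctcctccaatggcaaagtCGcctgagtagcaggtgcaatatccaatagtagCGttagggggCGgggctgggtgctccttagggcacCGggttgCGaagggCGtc
The 3 windows differ in composition. Abca9 has 2 CG pairs and 44.4% G and C, Abca5 has 25 CG pairs and 69.2%, and Abca7 has 12 CG pairs and 58.8%. Over the 32851 RefSeq promoters of the same length the median was 6 CG pairs. Of the matched genes that fell, only Abca9 lay below it. Abca2, Abca3 and Abcb1b, whose windows are not printed, had 20, 21 and 9 CG pairs. For Abca2 and Abcb1a, the 30 bases checked past the RefSeq start were in no GENCODE M21 transcript of the gene. The RefSeq start of Abcb1a lies 93 kb upstream of its GENCODE start. Motif letters were searched on both strands of all windows. The CCAAT box stands in 33.8% of all promoters, and among the 7 matched genes in those of Abca7 and Abcb1b. None of the 7 windows held TATAAA (12.4% of all), the interferon-stimulated response element in its short form (2.98%), the antioxidant-response letters TGACNNNGC (10.2%) or the PU.1-type letters GAGGAAGT (2.44%). These are descriptions of letters in short windows and say nothing of what binds there.

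Abca7 was the most abundant of the 9 in WT cells per length. Its product moves phospholipids and takes part in phagocytosis. In WT replicates 1 to 5 its level was 313, 272, 269, 271 and 273 CPM, and in deficient replicates 1 to 5 it was 209, 212, 166, 178 and 174 CPM. All deficient libraries were lower, and within that group replicates 1 and 2 were the highest. Abca7 fell to 67.2% of WT, 188 ± 21.3 against 280 ± 18.8 CPM (log2 fold change -0.57, SE 0.076, edgeR adjusted p = 9.3e-05). Its fall was also called in the authors' FPKM values, 24.1 ± 3.02 against 37.5 ± 3.22 FPKM (limma, log2 fold change -0.62 on the log2(FPKM + 1) scale, adjusted p = 1.7e-04). Abca7 (ENSMUSG00000035722, chromosome 10, 79996494 to 80015572, plus strand) begins 132 kb beyond the end of Ptbp1, the gene altered in these mice. Of 12 other genes tested between them, 3 fell, a share near the 23.1% of all genes, and none rose. Whether the alteration at Ptbp1 touches its neighbours was not tested.

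Abca2 and Abca3 showed small falls with overlapping libraries. Abca2, a pump of late endosomes and lysosomes linked to sterol and sphingolipid traffic, was at 127, 127, 125, 116 and 108 CPM in WT replicates 1 to 5. Its deficient values were 107, 112, 90.4, 83.3 and 94.8 CPM, so that deficient replicate 2 exceeded WT replicate 5. Abca2 stood at 80.9% of WT (97.5 ± 11.8 against 120 ± 8.30 CPM, log2 fold change -0.31, SE 0.080, edgeR adjusted p = 0.0084). Abca3, which loads phospholipid into the lamellar bodies of lung epithelium, was at 205, 209, 207, 206 and 169 CPM in WT replicates 1 to 5, with replicate 5 alone low. The deficient libraries had 173, 174, 159, 158 and 168 CPM, of which replicates 1 and 2 lay above WT replicate 5. Its mean was 83.6% of WT (log2 fold change -0.26, SE 0.061, edgeR adjusted p = 0.0047). A divergent neighbour, Abca17, starts 881 bp from the start of Abca3 on the opposite strand and moved the other way, from 1.68 ± 0.233 to 5.62 ± 1.45 CPM (3.34-fold, edgeR adjusted p = 1.4e-05). Abca17 was singled out after its values were seen, and 2.26% of the 50-base windows of Abca3 occur in a transcript of another gene, mostly Abca17. A noncoding gene on the opposite strand of Abca3, D330041H03Rik, averaged 6.51 CPM, and whether counting used strand is not stated.

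Abcc3 fell by more than 2-fold, and its values followed the macrophage markers. It encodes MRP3, an exporter of glucuronides and other organic anions. The gene (ENSMUSG00000020865) is on chromosome 11, 94343295 to 94392997, minus strand. WT replicates 2, 3 and 4 had 31.3, 33.4 and 31.2 CPM, and WT replicates 1 and 5 had 66.9 and 103.9 CPM. Deficient replicates 1 and 2 had 4.54 and 3.97 CPM, and replicates 3, 4 and 5 had 16.6, 18.2 and 16.0 CPM. The order over the libraries is nearly that of the summed macrophage markers, which were 1764, 1711 and 1710 CPM in WT replicates 2, 3 and 4 and 1256, 1349 and 1193 CPM in deficient replicates 3, 4 and 5. The genotypes did not overlap, and Abcc3 stood at 22.3% of WT (11.9 ± 7.0 against 53.3 ± 32.0 CPM, log2 fold change -2.16, SE 0.49, edgeR adjusted p = 0.0039).

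Against the sum of all 17 markers the genotypes were closer but still apart. Abcc3 came to 17.8 to 22.9 CPM per 1000 CPM of macrophage markers in WT libraries, to 13.2 to 13.5 in deficient replicates 3, 4 and 5, and to 6.89 and 6.18 in deficient replicates 1 and 2. With a covariate for macrophage markers the log2 fold change was -0.59 (edgeR adjusted p = 6.2e-05), and without WT replicates 1 and 5 it was -1.42 (edgeR adjusted p = 0.017). The markers themselves differed between the genotypes, and not all alike. Adgre1 and Cd68, both in the sum, stood at 76.1% and 83.5% of WT, and Vcam1 at 21.5%, beside 22.3% for Abcc3. Of the 17 markers 6 were not called, among them Fcgr1 at 91.4% of WT. Fcgr1 was higher in deficient replicates 3 to 5 (10.7 to 14.8 CPM) than in WT replicates 2 to 4 (5.25 to 6.74 CPM). Vcam1 was lower in the same comparison (105 to 127 against 200 to 219 CPM). The gap in the ratio thus depends on which markers are summed. Patterns were compared with 11406 other genes that had a mean of at least 1 CPM and a symbol. Genes with clone, predicted-gene or pseudogene names were left out. The adhesion gene Vcam1, itself 1 of the 17 macrophage markers, had the pattern most like that of Abcc3. Over the 10 libraries their centred log2 CPM differed by a root mean square of 0.084, and the next gene, Rims3, by 0.13.

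**Figure D2:**
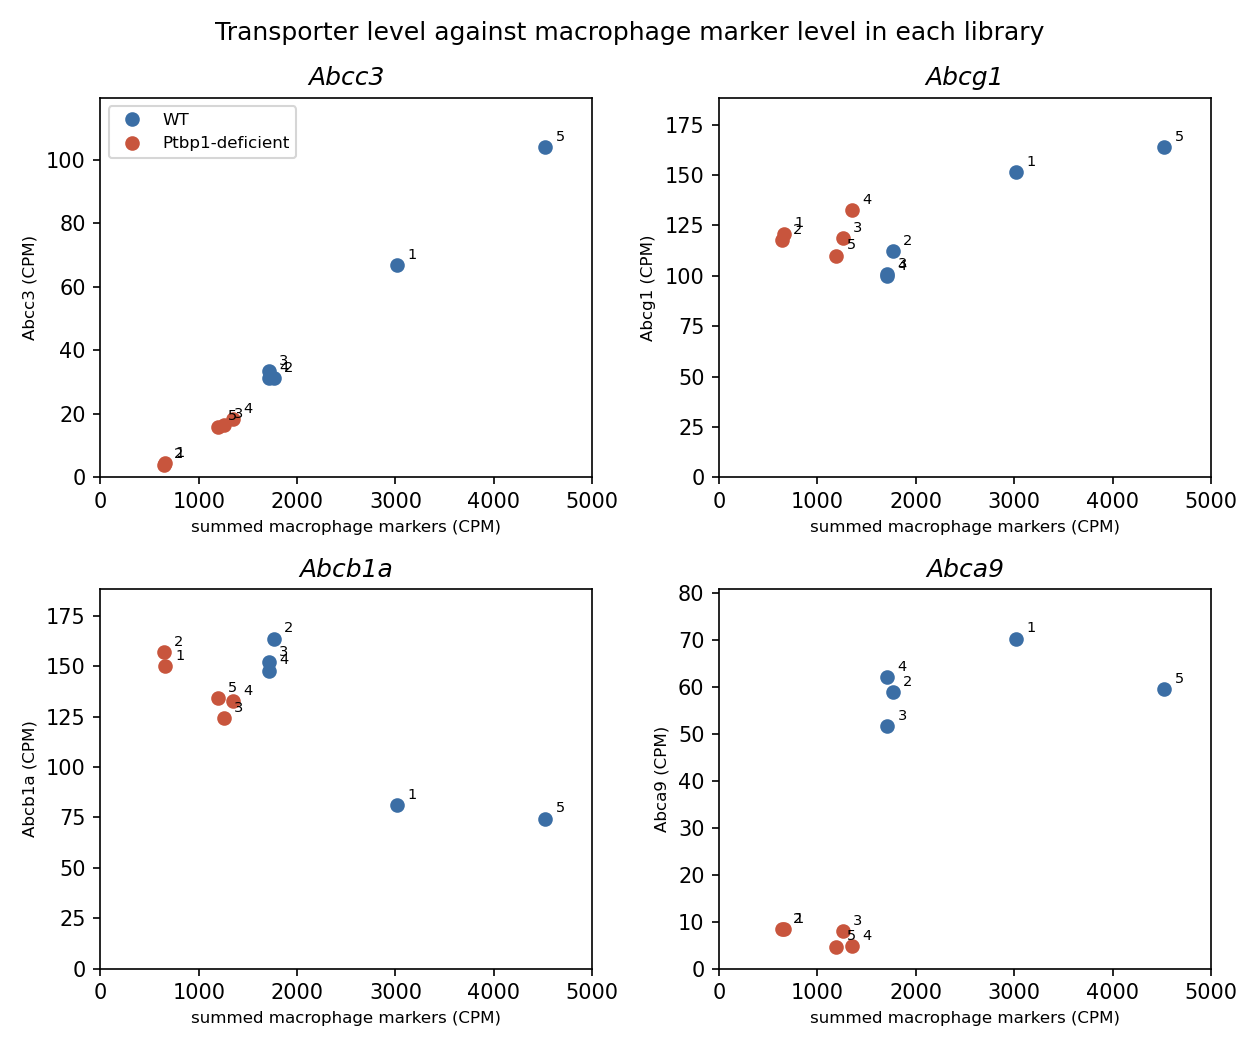
CPM of Abcc3, Abcg1, Abcb1a and Abca9 (vertical axes) against the summed CPM of 17 macrophage markers (horizontal axes) in each WT (blue) and Ptbp1-deficient (red) library, numbered by replicate. Over all 10 libraries, with marker sums of 642 to 4525 CPM, Abcc3 ranges from 3.97 to 103.9 and Abca9 from 4.69 to 70.2 CPM. Within WT, with sums of 1710 to 4525 CPM, Abcc3 ranges from 31.2 to 103.9 and Abca9 from 51.6 to 70.2 CPM. The marker sums of the genotypes do not overlap.

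Abcg1 was not called over all libraries. It encodes a pump that passes cholesterol to high-density lipoprotein and is a classic target of the sterol-sensing liver X receptors (LXR). WT replicates 2, 3 and 4 had 112, 101.0 and 99.7 CPM, and WT replicates 1 and 5, with the most macrophage markers, had 151 and 164 CPM. The deficient libraries had 121, 118, 119, 133 and 110.1 CPM in replicates 1 to 5, all below WT replicates 1 and 5, and all but replicate 5 above the other WT libraries. The means were 120 ± 8.13 and 126 ± 29.9 CPM (log2 fold change -0.07, SE 0.13, edgeR adjusted p = 0.72). Without WT replicates 1 and 5 the difference turned upward and was called (log2 fold change 0.20, SE 0.062, edgeR adjusted p = 0.021). With a covariate for macrophage markers a similar value, 0.21, was not called (edgeR adjusted p = 0.34).

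Abcb1a showed the opposite split in WT. Abcb1a and Abcb1b are the mouse pair that corresponds to the single human P-glycoprotein gene, an exporter of drugs and other amphipathic compounds. Abcb1a was at 164, 152 and 148 CPM in WT replicates 2, 3 and 4 but at 81.1 and 74.3 CPM in WT replicates 1 and 5. The deficient values of 150.1, 157, 124, 133 and 134 CPM overlapped the first of these sets and exceeded the second. No difference was called (140 ± 13.4 against 124 ± 42.5 CPM, log2 fold change 0.17, SE 0.21, edgeR adjusted p = 0.52), and without WT replicates 1 and 5 the log2 fold change was -0.15 (SE 0.072, edgeR adjusted p = 0.12). The markers of NK cells, which can also express this pump, summed to 241 to 364 CPM in deficient and 159 to 199 CPM in WT libraries, with 12 of 12 measured, 5 higher and 1 lower. The part of other cells in the Abcb1a values was not tested.

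Abcb1b was lower by a small margin, called in 12 of 25 alternatives. Its level was 26.6, 30.5, 29.6, 31.6 and 23.0 CPM in WT replicates 1 to 5, and 24.9, 24.7, 24, 23.4 and 24.6 CPM in the deficient libraries. WT replicate 5 was the lowest of all 10. The fall to 86.0% of WT (log2 fold change -0.22, SE 0.078) had an edgeR adjusted p of 0.040. It was lost on leaving out any 1 of deficient replicates 2 to 5 or WT replicates 2 to 4, with edgeR adjusted p-values of 0.052 to 0.098. It was lost in the authors' FPKM values too (limma, adjusted p = 0.071), but without WT replicates 1 and 5 it was -0.33 (edgeR adjusted p = 1.7e-04). Per kb of exon, Abcb1b made up 17.5% and 18.4% of the summed Abcb1a and Abcb1b level in WT replicates 5 and 1, and 9.72% to 12.8% in the other 8 libraries. The pair stands 49.6 kb apart on chromosome 5, Abcb1a at 8660077 to 8748575 and Abcb1b at 8798147 to 8866315, plus strand. Of their 50-base windows 17% (Abcb1a) and 18.3% (Abcb1b) occur in a transcript of another gene, mostly each other's. Reads without a unique position have a row of their own outside the genes, so the counts of the pair are uncertain.

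Levels of different genes were set side by side per kb of exon. In WT cells Abca7 led with 41.4 ± 2.79 CPM per kb, and its lowest library, 39.8, was above every library of the other 8 genes. Abcb1a (13.6 to 29.9) and Abcg1 (13.7 to 22.4) overlapped with each other and with both Abca3 (18.0 to 22.2) and Abca2 (12.9 to 15.2 CPM per kb), while every Abca3 library was above every Abca2 library. Abcc3 (5.48 to 18.2) overlapped with these 4 and with Abca9 (6.42 to 8.72), followed by Abcb1b (2.88 to 3.95) and Abca5 (0.563 to 0.923 CPM per kb), each apart from its neighbours.

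In deficient cells the order changed below the top. Abca7 (24.5 to 31.4 CPM per kb) overlapped with Abcb1a (22.7 to 28.6), and Abca3 (16.9 to 18.6) with Abcg1 (15.1 to 18.2). Abca9, at 0.583 to 1.04 CPM per kb, was now below Abcb1b (2.93 to 3.12), which it had exceeded in every WT library. Abca5 remained lowest at 0.245 to 0.388 CPM per kb. The authors' FPKM table, which lists genes of at least 1 FPKM in every library, holds 6 of the 9 and gave Abca3 39.6 ± 3.42 and Abca7 37.5 ± 3.22 FPKM in WT, so the first place differed between these measures. The RefSeq start of Abcb1a is 93 kb upstream of the gene start used for its exon length.

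**Figure D3:**
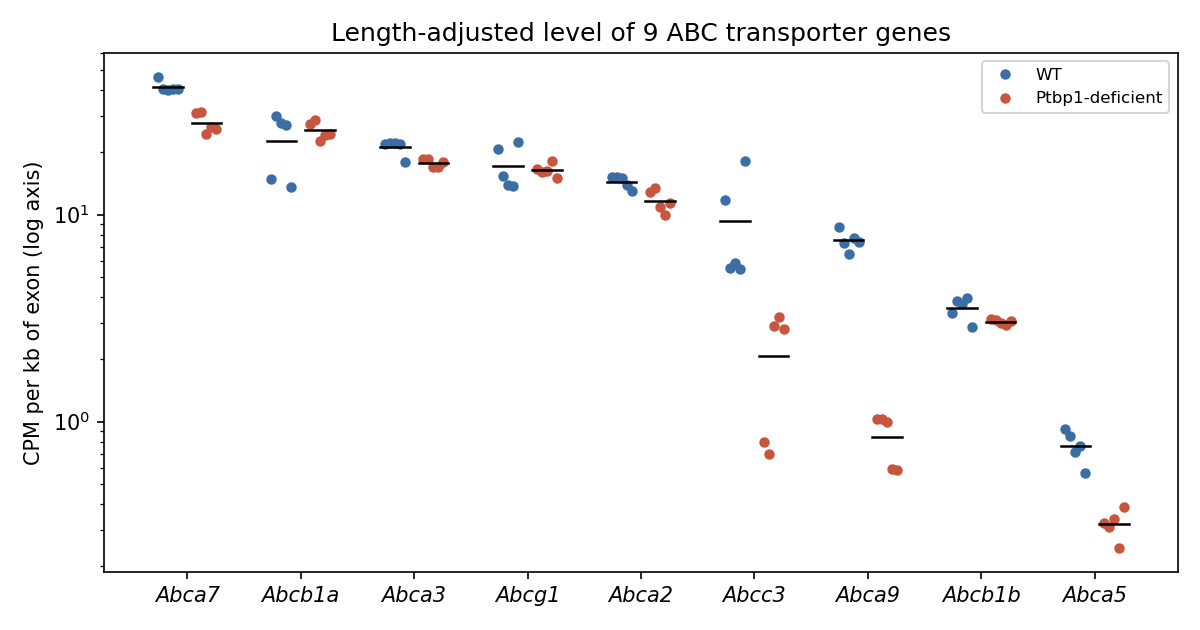
Level per kb of exon (log axis, CPM per kb) of the 9 transporter genes, ordered by WT mean, with 1 point for each WT (blue) and Ptbp1-deficient (red) library and the mean as a bar. Abca9 is above Abcb1b in all WT libraries and below it in all deficient ones.

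Among the 28 other ABC genes tested, 7 rose and 8 fell, their median log2 fold change being -0.04. These shares, 25% and 28.6%, are near the 21.9% and 23.1% of all genes. Abca1, the exporter that passes cholesterol to apolipoprotein A-I, stood at 26.2, 11.4, 9.09, 10.1 and 45.7 CPM in WT replicates 1 to 5. It was at 2.65, 2.5, 6.07, 7.47 and 5.80 CPM in the deficient libraries, below every WT value. Abca1 thus fell to 23.9% of WT (log2 fold change -2.06, SE 0.49, edgeR adjusted p = 0.0048), but with a covariate for macrophage markers it was -0.42 and not called (edgeR adjusted p = 0.19). Without WT replicates 1 and 5 its log2 fold change was -1.05 (edgeR adjusted p = 0.017).

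Relatives of the P-glycoprotein and MRP genes fell as well, and of these Abcb4 and Abcc5 were highest in WT replicates 1 and 5. Abcb4, a phosphatidylcholine translocator next to Abcb1b, fell from 9.37 ± 2.88 to 2.94 ± 0.648 CPM (31.4% of WT, edgeR adjusted p = 7.3e-05). Abcc5, an exporter of cyclic nucleotides, went from 51.2 ± 9.70 to 18.9 ± 2.11 CPM (36.9%, edgeR adjusted p = 4.3e-06), and Abcc1, which exports leukotriene C4 and glutathione conjugates, from 117 ± 3.19 to 81.7 ± 3.73 CPM (69.8%, edgeR adjusted p = 2.2e-06). A covariate for macrophage markers left log2 fold changes of -1.03 for Abcb4 and -1.09 for Abcc5, both called. The peptide transporter genes Tap1 (2.18-fold, edgeR adjusted p = 1.2e-07) and Tap2 (1.6-fold, edgeR adjusted p = 2.8e-06) rose, as did Abca13 (55.7-fold, edgeR adjusted p = 1.7e-08), the lipid transporter gene of the A subfamily with the steepest rise of the 28. By subfamily, 2 of 5 other A genes rose and 3 fell, 2 of 8 B genes rose and 1 fell, and 1 of 5 C genes rose and 2 fell. In the peroxisomal D subfamily 1 of 4 rose and 2 fell. Among the E and F proteins, which act in translation rather than transport, 1 of 4 rose and none fell, and neither of the 2 other G genes was called.

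**Figure D4:**
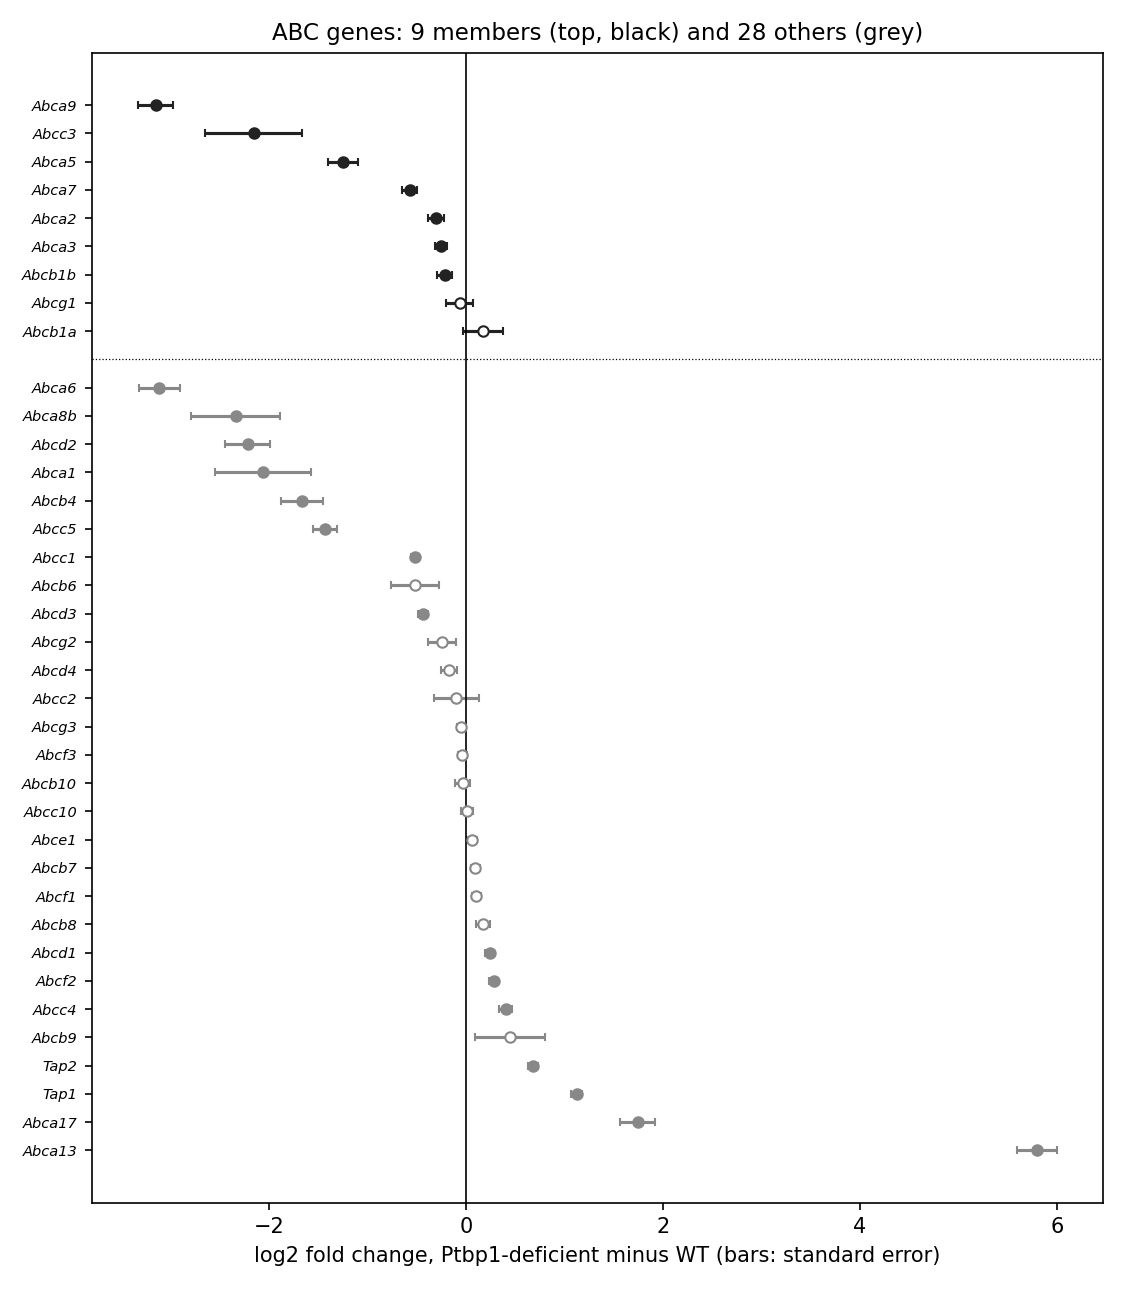
Log2 fold change, Ptbp1-deficient minus WT (horizontal axis, bars are the standard error), of the 9 transporter genes (black) and the 28 other ABC genes tested (grey); filled points are called by edgeR at an adjusted p under 0.05 and open points are not. The 9 genes run from -3.15 (Abca9) to 0.17 (Abcb1a) and the others from -3.11 (Abca6) to 5.80 (Abca13).

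Genes of the pathways around these pumps were counted beside the 21.9% of all genes that rose and the 23.1% that fell. Of 16 genes of LXR signalling and sterol efflux, a list that holds Abca1, 4 rose (25%) and 7 fell (43.8%), and the median log2 fold change was -0.33. In the FPKM values 1 of 15 rose and 7 fell. Apoe, the gene of an apolipoprotein that accepts exported sterol, fell from 493 ± 292 to 146 ± 43.8 CPM (edgeR adjusted p = 0.0011), with WT replicate 5 at 1008 CPM. Pltp, a phospholipid transfer protein gene, rose from 37.1 ± 8.41 to 69.1 ± 6.74 CPM (edgeR adjusted p = 2.4e-04), and the scavenger receptor gene Cd36 from 76.6 ± 8.43 to 124 ± 22.3 CPM (edgeR adjusted p = 5.4e-04). The receptor genes themselves were not called, with Nr1h2 at 152 CPM in both genotypes and Nr1h3 at 13.2 ± 6.52 and 27.4 ± 17.5 CPM in deficient and WT libraries (edgeR adjusted p = 0.99 and 0.080). With a covariate for macrophage markers 3 genes of the list rose and 4 fell.

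Lipid handling in late endosomes and lysosomes, where Abca2 and Abca5 reside, showed 5 rises and 6 falls among 20 genes, the median log2 fold change being 0.00. At 25% and 30% these counts are near the shares of all genes. Psap, the precursor of the saposins that present sphingolipids to hydrolases, rose from 4961 ± 318 to 8628 ± 1366 CPM (1.74-fold, edgeR adjusted p = 8.7e-05). The acid ceramidase gene Asah1 rose 1.23-fold (edgeR adjusted p = 2.5e-04), and Galc, a galactosylceramidase gene, fell from 24.4 ± 5.55 to 13.7 ± 1.75 CPM (edgeR adjusted p = 5.1e-04).

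Conjugation and the NRF2 response supply and control substrates of the C subfamily pumps, and of 15 such genes 2 rose (13.3%) and 10 fell (66.7%), and the median log2 fold change was -0.43. In the FPKM values 2 of 12 rose and 6 fell. Keap1, which holds NRF2 back, rose from 52.9 ± 2.05 to 77.6 ± 3.97 CPM (1.47-fold, edgeR adjusted p = 3.1e-06). The sulfotransferase gene Sult1a1 fell from 14.9 ± 3.13 to 6.39 ± 0.920 CPM (edgeR adjusted p = 4.8e-05) and the glutathione transferase gene Gstm1 from 3.67 ± 1.17 to 0.836 ± 0.288 CPM (edgeR adjusted p = 1.7e-04). Gstm1 has close paralogs, which leaves its counts uncertain. With a covariate for macrophage markers 6 genes of this list fell and 2 rose.

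Patterns over the 10 libraries were also compared gene by gene for Abca9 and Abca5, as for Abcc3 above. Closest to Abca9 were Sec31b (root mean square difference of centred log2 CPM 0.28) and Tle2 (0.30), which fell from 2.39 ± 0.516 to 0.303 ± 0.0734 and from 3.91 ± 0.432 to 0.553 ± 0.121 CPM. For Abca5 they were Stard9 (0.14) and Meis1 (0.15), at 40.5% and 45.3% of WT. The Abca9 differences are larger than that of 0.084 between Abcc3 and Vcam1, so by this measure no gene compared was as close to Abca9. The measure also counts the size of the change between genotypes. Sec31b and Tle2 were scarce, with as few as 17 and 35 counts in a library.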

How the data were processed

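RNA of 10 mouse dendritic cell libraries was analysed from the deposited tables. Per the submitters' processing notes the authors used HISAT2, StringTie and DESeq2. Those notes name GRCh38, although the identifiers are mouse Ensembl ones, and the sources used here do not name the counter. The deposited counts are unnormalized, with separate rows for reads outside genes (17.2% to 22.2% of a library), ambiguous (1.78% to 1.94%) and not unique (4.51% to 5.08%), which stayed out of library sizes and tests. No gene value in the table is under 2. The deposited FPKM values, made by the authors, served as an alternative, with 10 repeated identifiers summed.

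Symbols and lengths came from GENCODE M21 (GRCm38), which matched 19049 of 19178 identifiers. edgeR 4.0.16 (R 4.3.3) filtered with filterByExpr, leaving 18248 genes, scaled by TMM and tested genotype alone, adjusting by Benjamini-Hochberg across the whole table. It was also tested on data simulated for these 18248 genes. It recovered 13 of 50 at 1.25-fold, 30 of 50 at 1.5-fold, 42 of 50 at 2-fold and all 50 at 4-fold, and made 8 false calls. The genes changed in the simulation were drawn from those with a mean of at least 1 CPM. They were a far smaller share than the 45.0% called in the real data, so these figures may not carry over. Alternatives used DESeq2 1.42.0 and limma 3.58.1. The log2 CPM used a prior count of 2.

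The members and lists were chosen with earlier results of these data known. Named genes are the 9 members, the 6 other ABC genes with the smallest adjusted p, Abca1, Abca6, Abca8b and Abcb4, the 3 called genes of each pathway list with the smallest adjusted p, the 2 nearest patterns of members changed over 2-fold, Ptbp1, and single cell type markers as values beside a result. Outside this rule Abca17, Nr1h2, Nr1h3, Rxra and Rxrb were named after their values were seen.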

Additional observations from a re-analysis of the deposited data

Results flagged for a closer look

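In a screen of 34 named genes, 1 library stood apart from the other 4 of its genotype in 7 of 68 groups, and chance alone flags about 1 group in 20. Among the transporters these were Abca3 in WT replicate 5 (169 CPM, others 205 to 209), Abca7 in WT replicate 1 (313 CPM, others 269 to 273), Abca6 in deficient replicate 1 (0.427 CPM, others 0.218 to 0.264) and Abca8b in deficient replicate 5 (0.352 CPM, others 0.0777 to 0.103). WT replicate 5 was also apart in Apoe (1008 CPM, others 326 to 437), Galc (34.3 CPM, others 21.4 to 22.7) and Meis1 (10.9 CPM, others 13.9 to 14.7).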

How the results depend on the processing

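Under 25 alternatives Abca9, Abca5, Abca7, Abca2, Abca3 and Abcc3 stayed lower and called wherever they were measured (22 for Abca9, Abca5 and Abcc3, which the FPKM table does not list). Abca9 ranged from -3.40 to -3.05 on the log2 scale and Abcc3 from -2.37 to -0.59. Leaving out 1 library at a time gave 6 to 7 falls and 0 rises among the 9 genes, 8 to 10 falls and 7 to 9 rises among the other ABC genes, 3667 to 4225 falls and 3558 to 4143 rises among all genes, and a log2 fold change of -2.02 to -1.96 for Ptbp1, which was -1.21 to -1.18 in FPKM. The FPKM values, with fewer genes listed, gave 3 of 6 genes lower with either pseudocount (1 or 0.1) and with a floor of 5. Other ABC genes lower then numbered 3, or 2 with the floor, lipid handling genes higher numbered 7, and all genes higher 2435, or 2082 with the floor, where 2451 were lower. Chosen after seeing the data, leaving out WT replicates 1 and 5 gave 1 gene higher, Abcg1, whose log2 fold change went from -0.07 to 0.20. A covariate for macrophage markers, also chosen after seeing the data, gave 15 lipid handling falls in place of 23, and the cause was not tested. With the replicate number as a block, 1 call among the 9 was lost, that of Abcb1b (edgeR adjusted p = 0.072). The values showed no pairing by number. Same-numbered deviations correlated at -0.096 to 0.11, and 1 of 10 libraries correlated best with its own number. Such correlations cannot decide whether libraries were paired by design, which the labels do not state. Libraries of a genotype differed beyond sampling noise (chi-square per degree of freedom 5.20 to 97.7), so none was counted as a copy. This cannot show that each came from a mouse of its own. Deficient replicates 1 and 2 were closest, at 5.20, against 32.1 to 52.1 for either with replicates 3 to 5. WT replicates 2, 3 and 4 differed by 8.31 to 9.965, and by 36.5 to 97.7 from WT replicates 1 and 5. The 9 genes had 225 counts or more in each library, while Abca8b had as few as 5.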
